A study of Mus musculus with 24 samples.

Results

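The genes described here are 7 genes of the Nodal signalling pathway, Nodal, Gdf3, Tdgf1, Foxh1, Lefty1, Lefty2 and Cer1. They were chosen by name from the table of raw read counts, which holds 35591 genes, and all 7 were found in it. Expression was measured by RNA sequencing in 24 libraries from 6 male mouse embryonic stem cell (mESC) lines, each line sampled on day 0, day 2, day 2.5 and day 3 on the way to neuromesodermal progenitors (NMPs), the bipotent cells of the tail end of the embryo that give rise to spinal cord and trunk mesoderm. Lines were made from blastocysts of a Castaneus (Cast) mother with normal Smchd1 and a C57BL/6 father with a deleted and a floxed Smchd1 allele and the MMTV-Cre transgene. In 3 lines the genotype was Smchd1[fl/+], called wild-type (wt), and in the other 3 it was Smchd1[del/+], called heterozygous (het), in which the copy from the father is deleted. Whether a line inherited the Cre transgene is not given in the labels. All oocytes had normal SMCHD1, a protein of chromatin needed to keep some genes silent, and the comparison asks what a single working copy in the cells themselves does. Cells at day 0 are labelled DME LIF, a serum medium with LIF to which they had been moved in steps from 2i medium with LIF, and 2i itself holds CHIR99021 and an inhibitor of MEK. They were then moved to N2B27 medium with basic FGF, and CHIR99021, an activator of the Wnt pathway, was added with basic FGF at day 2, so that day 2.5 and day 3 follow Wnt activation. No Nodal, activin or Nodal inhibitor is named in the protocol for these days. Numbers 1 to 3 name the lines within a genotype. The labels do not say whether wt line 1 and het line 1 are linked in any way, while each line was measured 4 times.

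Nodal is a secreted signal of the TGF-beta family that keeps the epiblast, the tissue that forms the embryo proper, from turning neural too early and that later induces the primitive streak, mesoderm and endoderm. It binds activin receptors together with a co-receptor encoded by Tdgf1 (also called Cripto), and the receptors activate SMAD2 and SMAD3, which enter the nucleus with SMAD4 and act there with the DNA-binding factor FOXH1. Lefty1 and Lefty2 encode secreted inhibitors that are themselves induced by Nodal, which closes a negative feedback loop, and Cer1 encodes another secreted inhibitor known from the anterior visceral endoderm. Gdf3 encodes a related ligand that signals through the same receptors and co-receptor.

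Library totals ranged from 7.10 to 20.8 M (mega) counts with a median of 17.9 M, and the smallest was wt day 2.5 line 2. Levels are given as counts per M counts (CPM) scaled by TMM factors, mean ± SD over 3 lines. Smchd1, the deleted gene, averaged 143 ± 10.3 CPM in the wt lines against 95.2 ± 6.15 CPM in the het lines at day 0, and 193 ± 23.4 against 106 ± 1.95 CPM at day 3, with every het library under every wt library of its day. The summed level of the pluripotency genes Pou5f1, Sox2 and Nanog was 1729 to 2023 CPM over the 6 libraries of day 0 and 252 to 488 CPM over those of day 3. That of the NMP and primitive streak genes T, Cdx2, Nkx1-2 and Sp5 was 2.36 to 6.30 CPM at day 0 and 362 to 712 CPM at day 3. The cultures also held signal of 19 endoderm markers. Their sum was 2316 to 3898 CPM in wt and 1363 to 1960 CPM in het at day 0, and 7507 to 15490 CPM in wt and 4625 to 6388 CPM in het at day 2, with no overlap between genotypes on either day. At day 2.5 it was 5158 to 13600 CPM in wt and 5449 to 8130 CPM in het, and at day 3 it was 5227 to 10360 and 4015 to 6606 CPM. Ttr was at 0 counts in all 3 wt and all 3 het libraries of day 0, and Afp in all 3 wt libraries of day 0 and all 3 het libraries of days 2 and 3. Genes on chromosome 8 stood 0.17 (median, log2) above the mean of the 6 lines in wt line 1, more than for any other line and chromosome, and no member lies on that chromosome.

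The members are protein-coding genes on 6 chromosomes of the GRCm38 build. Nodal (ENSMUSG00000037171) is on chromosome 10 from 61417972 to 61425338, Gdf3 (ENSMUSG00000030117) on chromosome 6 from 122605403 to 122610087, and Tdgf1 (ENSMUSG00000032494) on chromosome 9 from 110939603 to 110946158. Foxh1 (ENSMUSG00000033837) is on chromosome 15 from 76668225 to 76669948 and Cer1 (ENSMUSG00000038192) on chromosome 4 from 82881751 to 82885148. The Lefty genes are neighbours on chromosome 1, Lefty2 (ENSMUSG00000066652) from 180893108 to 180899103 and Lefty1 (ENSMUSG00000038793) from 180935022 to 180938400. No exon of a member overlaps an exon of another gene in the GENCODE vM21 annotation.

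Because Lefty1 and Lefty2 are close copies, their sequences decide how far reads can tell them apart. Their coding sequences are 1104 bases each, of which 1014 (91.8%) are identical at the same position, and the longest identical run is 140 bases. A stretch of 75 bases, the read length, holds a median of 3 differences and at most 23. The stretch with the most differences, bases 51 to 125 of the coding sequence, is shown here with the differing bases in capitals.
Lefty1: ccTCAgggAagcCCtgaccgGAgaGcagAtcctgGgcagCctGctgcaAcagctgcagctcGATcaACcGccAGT
Lefty2: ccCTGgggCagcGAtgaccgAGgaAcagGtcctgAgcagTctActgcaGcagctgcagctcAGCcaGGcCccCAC
Over the whole longest transcript, 88.8% of 75-base stretches of Lefty1 and 92.8% of those of Lefty2 occur in no other gene, and the shared ones are shared between these genes. For Tdgf1 the share is 91.3%, with the rest in the pseudogene Tdgf1-ps1, and for Nodal, Gdf3 and Foxh1 it is 100%. How reads that fit several genes were counted is not given in the sources used here, so the values of Lefty1, Lefty2 and Tdgf1 carry that uncertainty.

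The bases before the start sites are shown because pathway factors are known to bind near their target genes. RefSeq promoter entries on GRCm38.p6 were found for Nodal, Tdgf1 and Cer1, and not for Gdf3, Foxh1, Lefty1 and Lefty2. Searched on both strands were AATNNACA, the core of the sequence that FOXH1 binds, and CAGAC and GTCTAGAC, a short and a long form of the SMAD box, none of which contains another. The 250 bases before the start of Nodal (chr10:61417722-61417971, plus strand) and of Tdgf1 (chr9:110946159-110946408, minus strand) are shown, with matches in capitals.
Nodal: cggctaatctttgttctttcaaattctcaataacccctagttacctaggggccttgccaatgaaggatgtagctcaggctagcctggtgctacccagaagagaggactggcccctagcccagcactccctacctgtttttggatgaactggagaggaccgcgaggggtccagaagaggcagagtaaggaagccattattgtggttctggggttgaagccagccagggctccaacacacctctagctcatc
Tdgf1: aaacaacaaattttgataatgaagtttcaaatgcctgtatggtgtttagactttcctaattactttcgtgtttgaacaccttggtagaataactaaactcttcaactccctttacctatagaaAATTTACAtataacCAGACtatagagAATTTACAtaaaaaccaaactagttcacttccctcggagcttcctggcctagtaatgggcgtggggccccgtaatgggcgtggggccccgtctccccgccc
Tdgf1 held 2 matches to AATNNACA with 1 match to CAGAC between them, Cer1 held 1 match to CAGAC, and Nodal held 0 of any. Of 32851 promoter windows of the same length, 10.9% held AATNNACA, 42.2% CAGAC and 0.2% GTCTAGAC, so these matches are descriptions of the letters and say nothing on binding.

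Per kilobase of exon (RPKM), the scale on which levels of the members are compared with each other, the co-receptor gene was by far the most abundant member at day 0. Tdgf1 was at 326 ± 31.1 RPKM in wt and 363 ± 32.3 RPKM in het (SD, n = 3). Gdf3 followed at 47.1 and 49.7 RPKM, then Foxh1 at 37.0 and 39.8 RPKM, with no overlap between neighbours in this order. Nodal at 27.4 RPKM and Lefty1 at 27.2 RPKM in wt overlapped between libraries, as they did in het at 26.3 and 22.7 RPKM. Lefty2 was at 19.9 RPKM in wt and 17.2 RPKM in het, and in het its libraries overlapped those of Lefty1. By day 3 the order was closer. Tdgf1 at 20.7 RPKM and Foxh1 at 17.9 RPKM in wt overlapped, as they did in het at 35.7 and 26.6 RPKM. Lefty1 came next in both genotypes, at 6.74 RPKM in wt and 15.4 RPKM in het. In wt its libraries overlapped those of Gdf3 at 4.60 RPKM, and those of Gdf3 overlapped Nodal at 4.20 RPKM, which overlapped Lefty2 at 3.19 RPKM. In het Lefty1 lay above Lefty2 at 7.58 RPKM without overlap, Lefty2 overlapped Nodal at 7.52 RPKM, and Nodal overlapped Gdf3 at 5.54 RPKM.

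Of the 7 members, 6 passed the filter on low counts in every comparison and Cer1 passed in none. On leaving LIF, 5 of the 6 tested members fell between day 0 and day 2 in wt and 5 of 6 in het, and 0 rose. The member left over was Foxh1 in both. In the same step and in each genotype 3 of 3 pluripotency genes and 6 of 6 genes of naive pluripotency fell, the latter with sums of 896 to 1027 CPM at day 0 and 69.3 to 98.9 CPM at day 2, while 10 of 16 tested endoderm markers rose. Their part in the fall of the members was not tested. Over all genes tested, 21.9% fell in wt and 28.1% in het in this step, and 22.4% and 28.0% rose. The median log2 fold change of the 6 members was -1.88 in wt and -1.59 in het, beside 0.02 and 0.01 over all genes. In the next step, from day 2 to day 2.5 and after Wnt activation, 2 members fell in wt and 0 rose, while in het 2 fell and 2 rose. The background was 14.5% lower and 14.6% higher in wt, and 22.9% lower and 21.8% higher in het, and the median over the members was -0.01 in wt and -0.23 in het. In this step 4 of 4 markers of formative or primed epiblast fell (median -2.48 in wt and -2.45 in het) and 4 of 4 NMP and streak genes rose in each genotype. Of the 3 pluripotency genes, 1 fell in wt and 2 in het. Between day 2.5 and day 3, 3 members fell in wt and 2 in het, and 0 rose in either, against a background of 10.1% lower and 8.99% higher in wt and 16.0% lower and 13.8% higher in het. The median over the members was -1.02 in wt and -0.22 in het, beside 0.00 and -0.02 over all genes. Of the 4 formative or primed markers, 2 fell in wt (median -1.15), while 1 fell and 1 rose in het (median -0.52). Of the 3 pluripotency genes, 1 fell in each genotype. The part of these markers in the changes of the members in the last 2 steps was not tested. In such cultures, fewer cells that express a gene and less RNA per cell cannot be told apart.

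**Figure D1:**
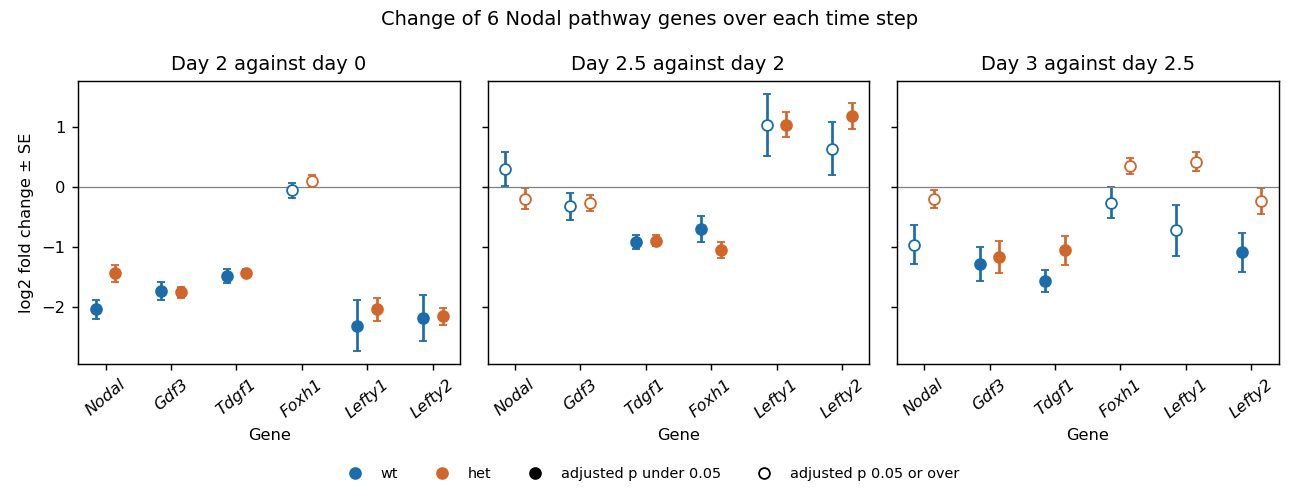
The log2 fold change of the 6 members that passed the filter is plotted for each time step (points, bars ± SE), in wt (blue) and het (orange), with filled points for an adjusted p under 0.05. In the first step 5 of 6 genes are lower in both genotypes, in the second Lefty1 and Lefty2 lie above 0 while Tdgf1 and Foxh1 lie below it, and in the third Tdgf1 and Gdf3 are lower in both.

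The ligand Nodal was at 57.2, 53.2 and 61.5 CPM in wt lines 1, 2 and 3 at day 0 and at 58.3, 47.3 and 59.7 CPM in the het lines. At day 2 it was at 12.1, 16.1 and 13.6 CPM in wt and at 17.5, 18.9 and 24.1 CPM in het. Every library of day 2 lay below every library of day 0. On the log2 scale this was a change of -2.03 in wt (adjusted p 2.6e-07, SE 0.16) and -1.43 in het (adjusted p 4.1e-07, SE 0.14), and 3 of 3 lines of each genotype went down. At day 2.5 Nodal was at 25.8, 12.4 and 12.4 CPM in wt and at 15.5, 16.0 and 21.4 CPM in het. The change from day 2 did not pass the test in either genotype, with a log2 fold change of 0.30 (adjusted p 0.453, SE 0.28) in wt, where line 1 alone went up, and of -0.20 (adjusted p 0.384, SE 0.18) in het. At day 3 its level was 10.03, 5.81 and 10.6 CPM in wt and 16.0, 16.6 and 14.6 CPM in het. The 3 het libraries lay above the 3 wt libraries. From day 2.5 to day 3 the log2 fold change was -0.96 in wt (adjusted p 0.0614, SE 0.32, lower in 3 of 3 lines) and -0.20 in het (adjusted p 0.355, SE 0.15, lower in 1 of 3 lines). The wt value passed the threshold in 5 of 12 alternatives, among them the line as a replicate block (-0.90, adjusted p 0.00544), whereas without wt day 2.5 line 1 it was -0.50.

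Gdf3, the other ligand gene, fell in a similar way in the first step. It was at 120.2, 110.2 and 112 CPM in the wt lines at day 0 and at 121, 126 and 114 CPM in the het lines. At day 2 the levels were 36.6, 40.2 and 25.7 CPM in wt and 34.5, 38.3 and 33.2 CPM in het. The libraries of the 2 days did not overlap. This was a log2 fold change of -1.73 in wt (adjusted p 1.0e-06, SE 0.15) and -1.75 in het (adjusted p 3.5e-10, SE 0.09). At day 2.5 Gdf3 was at 36.3, 24.3 and 20.2 CPM in wt and at 27.3, 34.9 and 26.1 CPM in het, which overlapped the levels of day 2, and the change did not pass the test (log2 fold change -0.32, adjusted p 0.322 in wt and -0.27, adjusted p 0.122 in het). It passed in wt without wt day 2.5 line 1 (-0.62, adjusted p 0.0470) and in het without het day 2.5 line 2 (-0.41, adjusted p 0.0355). At day 3 it was at 15.1, 7.50 and 10.9 CPM in wt and at 8.22, 20.6 and 11.4 CPM in het. Within each genotype every library of day 3 lay below every library of day 2.5. From day 2.5 to day 3 the log2 fold change was -1.28 in wt (adjusted p 0.0111, SE 0.28) and -1.16 in het (adjusted p 0.00678, SE 0.26), lower in 3 of 3 lines of each. Without wt day 3 line 3 the wt adjusted p was 0.0502.

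Tdgf1, the co-receptor gene, was the member that fell in all 3 steps and in both genotypes. At day 0 it was at 769, 932 and 863 CPM in wt and at 969.8, 858 and 1024 CPM in het. At day 2 it was at 340.5, 304 and 269 CPM in wt and at 358, 345 and 348 CPM in het. Its log2 fold change was -1.48 in wt (adjusted p 1.8e-07, SE 0.11) and -1.42 in het (adjusted p 6.6e-11, SE 0.06). At day 2.5 the levels were 154, 164 and 161 CPM in wt and 164, 207 and 197 CPM in het. From day 2 this was a log2 fold change of -0.92 in wt (adjusted p 0.000125, SE 0.12) and -0.90 in het (adjusted p 3.5e-06, SE 0.09). At day 3 Tdgf1 was at 56.2, 37.7 and 69.1 CPM in wt and at 58.2, 142 and 80.1 CPM in het. No library of a later day overlapped one of an earlier day of its genotype, and in het at day 3 line 2 stood above the other lines. The last step was -1.56 in wt (adjusted p 0.000769, SE 0.18) and -1.05 in het (adjusted p 0.00747, SE 0.24). From the highest library, het day 0 line 3, to the lowest, wt day 3 line 2, the level differed 27.2-fold.

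Foxh1 behaved unlike the other members in the first step and fell after Wnt activation. It was at 51.7, 50.5 and 49.1 CPM in wt and 57.0, 57.2 and 48.6 CPM in het at day 0. At day 2 it was at 46.9, 45.0 and 52.7 CPM in wt and 53.3, 58.5 and 59.9 CPM in het. The levels of both days overlapped, with a log2 fold change of -0.06 in wt (adjusted p 0.746, SE 0.13) and 0.09 in het (adjusted p 0.454, SE 0.10). At day 2.5 the levels were 40.8, 25.7 and 21.1 CPM in wt and 25.1, 24.3 and 34.1 CPM in het. All 6 lay below the libraries of day 2. The log2 fold change was -0.70 in wt (adjusted p 0.0253, SE 0.21) and -1.05 in het (adjusted p 2.8e-05, SE 0.13), and the wt call was lost when wt day 2 line 1 or 3, or wt day 2.5 line 2 or 3, was left out (adjusted p 0.0524 to 0.1002). At day 3 Foxh1 was at 32.5, 19.8 and 21.2 CPM in wt and at 36.2, 37.8 and 35.2 CPM in het. From day 2.5 the log2 fold change was -0.27 in wt (adjusted p 0.507, SE 0.26) and 0.35 in het (adjusted p 0.0627, SE 0.13, higher in 3 of 3 lines), and neither passed the test. The het value passed in 4 of 12 alternatives, and without het day 2.5 line 3 it was 0.55 (adjusted p 0.00553). Over all 24 libraries its highest level was 3.03-fold its lowest, beside 10.6-fold for Nodal.

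The feedback inhibitor Lefty1 fell in both genotypes and then rose in het. At day 0 it was at 53.9, 42.1 and 47.5 CPM in wt and at 46.9, 30.4 and 42.6 CPM in het. At day 2 it was at 3.24, 19.4 and 6.35 CPM in wt and at 7.04, 10.5 and 11.4 CPM in het. Line 2 stood well above the other wt lines on this day. Its drop gave a log2 fold change of -2.31 in wt (adjusted p 0.000546, SE 0.42) and -2.04 in het (adjusted p 3.1e-07, SE 0.19), and without wt day 2 line 2 the wt value was -3.32. At day 2.5 Lefty1 was at 31.1, 16.6 and 10.4 CPM in wt and at 17.5, 17.4 and 24.5 CPM in het. In het every library of day 2.5 lay above every library of day 2, whereas in wt the days overlapped. The rise was 2.05-fold in het (log2 fold change 1.03, adjusted p 0.00112, SE 0.21) and was seen in 3 of 3 lines. In wt the log2 fold change was also 1.03 but with an SE of 0.52 and an adjusted p of 0.155, and without wt day 2 line 2 it was 2.02 (adjusted p 0.00873). At day 3 the levels were 16.0, 5.45 and 14.1 CPM in wt and 25.1, 31.5 and 24.7 CPM in het, and the 3 het libraries lay above the 3 wt libraries. The last step did not pass the test in wt (log2 fold change -0.72, adjusted p 0.257, SE 0.42) or in het (0.42, adjusted p 0.0649, SE 0.16, higher in 3 of 3 lines). In het it passed in 4 of 12 alternatives, among them without het day 2.5 line 3 (log2 fold change 0.62, adjusted p 0.0119).

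Lefty2, its neighbour and close copy, followed a like course up to day 2.5. It was at 52.7, 44.0 and 59.5 CPM in wt and at 47.7, 40.7 and 46.0 CPM in het at day 0. At day 2 it was at 5.99, 22.2 and 6.10 CPM in wt and at 9.22, 9.11 and 11.6 CPM in het. Wt line 2 was again the library that stood apart. Here the log2 fold change was -2.18 in wt (adjusted p 0.000354, SE 0.38) and -2.15 in het (adjusted p 5.2e-09, SE 0.14), and without wt day 2 line 2 the wt value was -3.11. At day 2.5 Lefty2 was at 25.6, 14.4 and 12.4 CPM in wt and at 16.2, 22.5 and 29.4 CPM in het. The rise was 2.27-fold in het (log2 fold change 1.18, adjusted p 0.000429, SE 0.21), again with no overlap between the days. In wt the log2 fold change was 0.64 (adjusted p 0.305, SE 0.44), and without wt day 2 line 2 it was 1.54 (adjusted p 0.00701). At day 3 Lefty2 was at 9.12, 5.08 and 10.8 CPM in wt and at 24.8, 15.2 and 19.4 CPM in het. Every het library of this day lay above every wt library. From day 2.5 Lefty2 fell in wt (log2 fold change -1.09, adjusted p 0.0401, SE 0.33), a call that was lost when any of 5 of the 6 libraries was left out (adjusted p 0.0598 to 0.129), wt day 2.5 line 3 being the exception. In het the log2 fold change was -0.24 (adjusted p 0.439, SE 0.21).

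Cer1 was at the limit of detection. It had 23 counts over the 24 libraries together and 0 counts in 17 of them, which at 3 counts allows a level of up to 0.144 to 0.422 CPM in a library, and such a floor covers counting error only. The highest counts were 7 in wt day 2 line 2, 6 in het day 0 line 2 and 4 in wt day 0 line 2. No fold change is given for it. The other 4 anterior visceral endoderm markers summed to 8.05 to 85.3 CPM over the libraries. Otx2, which the epiblast also expresses, had group means of 57.6 to 73.9 CPM at days 0 and 2, and Dkk1, an inhibitor of Wnt signalling, had its highest means at day 2.5, at 12.5 CPM in wt and 10.7 CPM in het. Lhx1 was under 1 CPM in every library, and Hhex had 0 counts in all 3 libraries in 5 of the 8 groups.

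**Figure D2:**
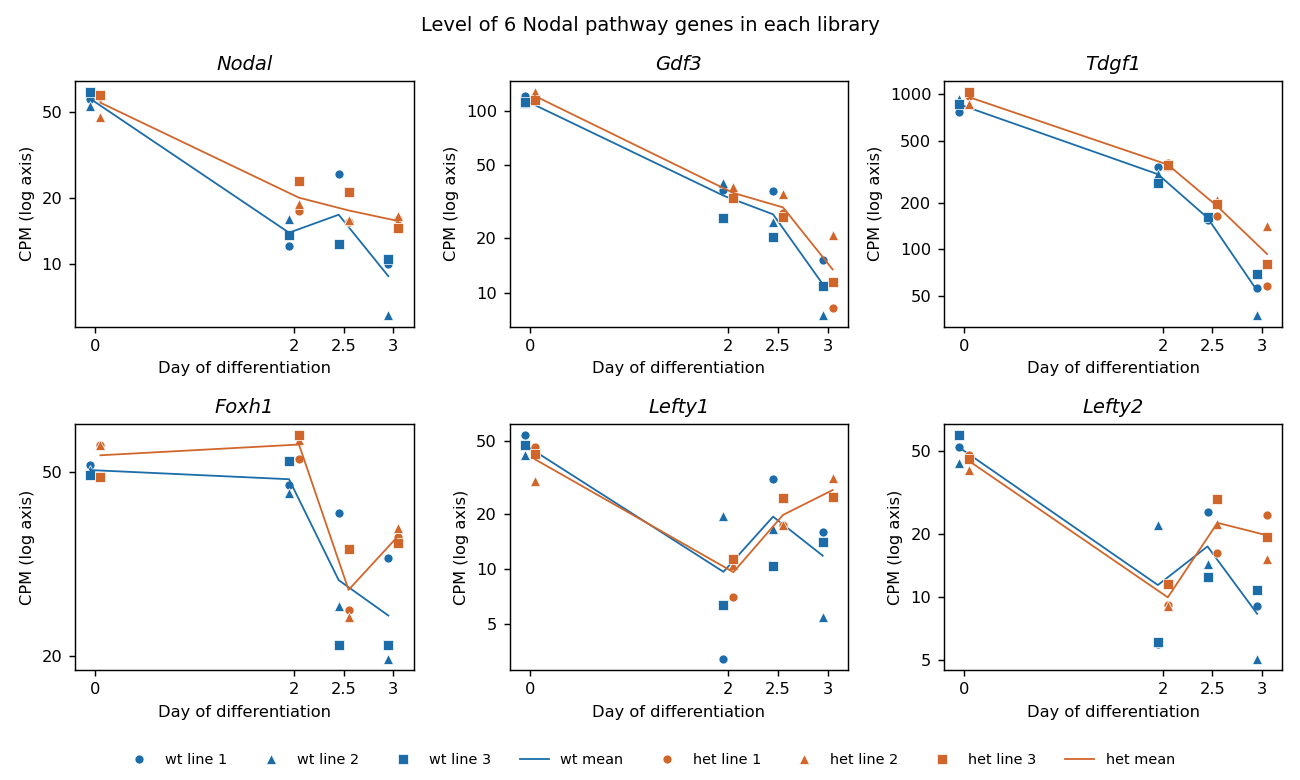
The level of each of the 6 expressed members is plotted in CPM on a log axis against the day, with a point for each library (shape gives the line), wt in blue and het in orange, and lines through the group means. Tdgf1 falls from 855 to 54.3 CPM in wt and from 951 to 93.5 CPM in het between day 0 and day 3, and the wt line 2 points of day 2 stand above the other wt points for Lefty1 and Lefty2.

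The genotypes were compared on each day to ask what the loss of the father's copy of Smchd1 did. By edgeR's quasi-likelihood test, 0 of the 6 tested members differed on any of the 4 days. Of all genes, 0% differed at day 0 and day 2.5, 0.551% at day 2 and 0.00638% (1 gene, Smchd1) at day 3, so few genes of any kind passed. Even the deleted gene Smchd1 did not pass at day 0 (log2 fold change -0.61, adjusted p 0.1004, SE 0.08) or day 2.5 (-0.6, adjusted p 0.9075, SE 0.11). It passed at day 2 (-0.75, adjusted p 0.00824) and day 3 (-0.88, adjusted p 0.0307). The test missed a known difference at day 0 and day 2.5, so its result for the members there does not show equal levels. An unadjusted p under 0.05 was reached by 0 members at day 0, 1 at day 2 (Nodal), 1 at day 2.5 (Tdgf1) and 5 at day 3. Over all genes it was reached by 1649 of 15108 tested, 1576 of 15414, 822 of 15588 and 1432 of 15686 on these days. At day 0 and day 2.5 wt and het libraries overlapped for all 6 members, where 17.0% and 11.6% of genes did not overlap in either direction. At day 2 the 3 het libraries lay above the 3 wt libraries for Nodal, Tdgf1 and Foxh1, which 8.30% of genes did. The log2 fold changes were 0.52 for Nodal (adjusted p 0.329, SE 0.19), 0.19 for Tdgf1 (adjusted p 0.505, SE 0.09) and 0.24 for Foxh1 (adjusted p 0.538, SE 0.12). On the same day 11 of 16 tested endoderm markers passed as lower in het, and 16 of 16 had a negative log2 fold change (median -1.04). Their part in the members' values was not tested. For Lefty1 and Lefty2 at day 2 the values of -0.01 and -0.20 rested on wt line 2, without which they were 0.99 (adjusted p 0.241) and 0.71 (adjusted p 0.301).

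At day 3 all 6 members had a positive log2 fold change, and for Nodal, Lefty1, Lefty2 and Foxh1 the 3 het libraries lay above the 3 wt libraries, which 8.52% of genes did. Lefty2 was at 8.33 ± 2.94 CPM in wt and 19.8 ± 4.80 CPM in het, a log2 fold change of 1.23 (unadjusted p 0.000598, adjusted p 0.229, SE 0.26). Lefty1 was at 11.8 ± 5.64 and 27.1 ± 3.84 CPM (log2 fold change 1.18, adjusted p 0.301, SE 0.30), and Nodal at 8.80 ± 2.61 and 15.8 ± 1.05 CPM (0.83, adjusted p 0.306, SE 0.22). For Foxh1 the means were 24.5 ± 6.99 and 36.4 ± 1.30 CPM (0.56, adjusted p 0.399, SE 0.17). Tdgf1 at 54.3 ± 15.8 and 93.5 ± 43.6 CPM (0.78, adjusted p 0.469, SE 0.29) and Gdf3 at 11.2 ± 3.79 and 13.4 ± 6.45 CPM (0.26, adjusted p 0.859, SE 0.33) overlapped between genotypes. Without het line 2 the value of Gdf3 was -0.21 and that of Tdgf1 0.33. A two-sided exact permutation of the 3 wt and 3 het lines gave p 0.1 for each of the 4 members without overlap, the smallest p it allows. Other tests gave other calls. At day 3 the DESeq2 Wald test passed Lefty2 (adjusted p 0.00231), Lefty1 (0.0103) and Nodal (0.0457), and edgeR with no filter beyond 1 count passed these and also Tdgf1 (0.00227) and Foxh1 (0.0347). Of all genes, 0.459% were higher in het with the first of these settings and 0.569% with the second. With the shared line number as a replicate block Lefty2 passed (0.0180), as 0.159% of genes did upwards, although the labels do not say that the number links wt and het lines. Without wt line 1 Foxh1 passed (log2 fold change 0.81, adjusted p 0.0358), as 0.162% of genes did upwards. For the endoderm markers, 16 of 16 tested had a negative log2 fold change (median -0.70) and 0 passed the test, with sums that overlapped, at 5227, 10130 and 10360 CPM in wt lines 1, 2 and 3 and 4015, 6371 and 6606 CPM in het. The pluripotency sum did not overlap, at 354, 252 and 328 CPM in wt and 358, 488 and 357 CPM in het. Of its 3 genes, 3 had a positive log2 fold change (median 0.33) and 0 passed the test. The sum of 4 markers of formative or primed epiblast did not overlap either, at 188, 144 and 180.2 CPM in wt and 189, 266 and 218 CPM in het. Most of it was Dnmt3b, which overlapped, at 138.5 to 178 CPM in wt and 175 to 239.5 CPM in het. Otx2 overlapped as well, while Fgf5 and Pou3f1 did not. Of the 4 markers, 4 had a positive log2 fold change (median 0.98), while 0 passed the test. Their part in the result was not tested.

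**Figure D3:**
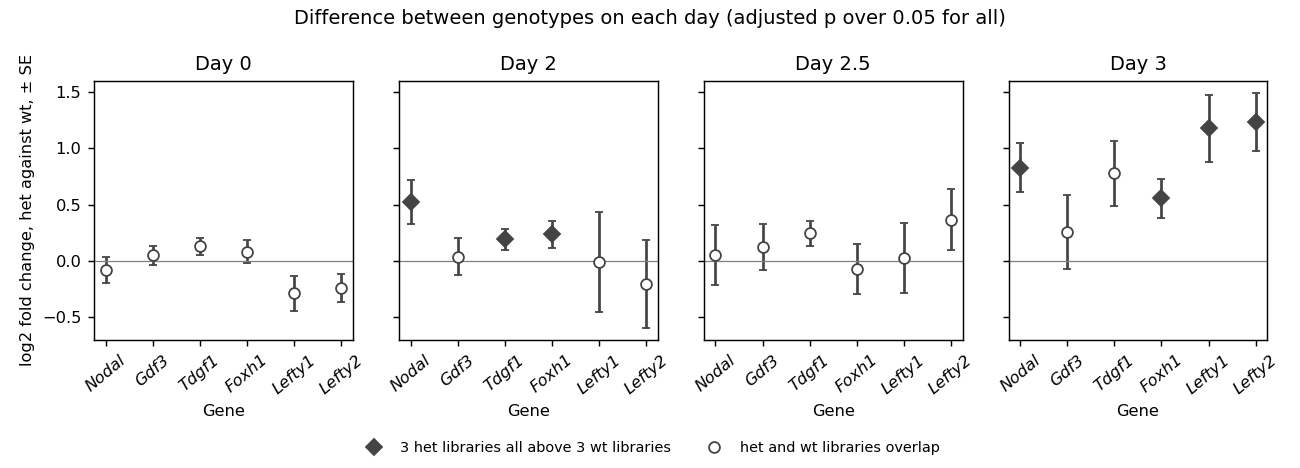
The log2 fold change of het against wt is plotted for the 6 members on each day (points, bars ± SE), with filled diamonds where all 3 het libraries lay above all 3 wt libraries and open circles where the genotypes overlapped. No member had an adjusted p under 0.05 on any day, and at day 3 the values run from 0.26 for Gdf3 to 1.23 for Lefty2.

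The interaction of genotype with each time step tests whether a step differed in size between wt and het. For the members 0 of 6 passed in each of the 3 steps, and of all genes 0% passed in each. An unadjusted p under 0.05 was reached by 1034 of 16387 tested genes in the first step, 850 of 16569 in the second and 635 of 16486 in the last. In the step from day 0 to day 2 the interaction of Nodal was 0.61 on the log2 scale (unadjusted p 0.00862, adjusted p 0.755, SE 0.21), its fall being smaller in het. From day 2.5 to day 3 all 6 members had a positive interaction, with a median of 0.71 beside 0.00 over all genes, but that of Gdf3, 0.14, was -0.18 without het line 2 and -0.03 without wt line 2. It was 1.16 for Lefty1 (unadjusted p 0.0331, adjusted p 0.999, SE 0.50) and 0.87 for Lefty2 (unadjusted p 0.0573, adjusted p 0.999, SE 0.42). Calls such as that of Lefty1 at day 2.5 in het and not in wt are therefore not shown to differ between genotypes. From day 2.5 to day 3 the interaction was also positive for 4 of 4 markers of formative or primed epiblast (median 0.84) and 3 of 3 pluripotency genes (median 0.46). It was negative for 16 of 17 tested endoderm markers (median -0.28). Of these markers 0 passed, and their part in the members' values was not tested.

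Levels relative to Nodal, per kilobase of exon, show how the balance of ligand, co-receptor and inhibitor shifted. Lefty1 plus Lefty2 together were 1.72 ± 0.130 times Nodal in wt and 1.51 ± 0.0884 times Nodal in het at day 0 (SD, n = 3). At day 2 the ratio was 0.718, 2.54 and 0.916 in the wt lines and 0.904, 1.05 and 0.947 in the het lines. It was 2.19 ± 0.368 and 2.36 ± 0.153 at day 2.5. At day 3 it was 2.63, 1.82 and 2.41 in wt and 3.10, 2.99 and 3.08 in het. Apart from wt line 2 at day 2, every library of days 2.5 and 3 lay above every library of day 2, and at day 3 the het lines lay above the wt lines. The ratio of Tdgf1 to Nodal was 11.98 ± 1.75 in wt and 13.8 ± 0.609 in het at day 0, 17.8 ± 4.11 and 14.2 ± 2.46 at day 2, and 4.96 ± 0.425 and 4.70 ± 1.98 at day 3. These ratios were not tested.

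**Figure D4:**
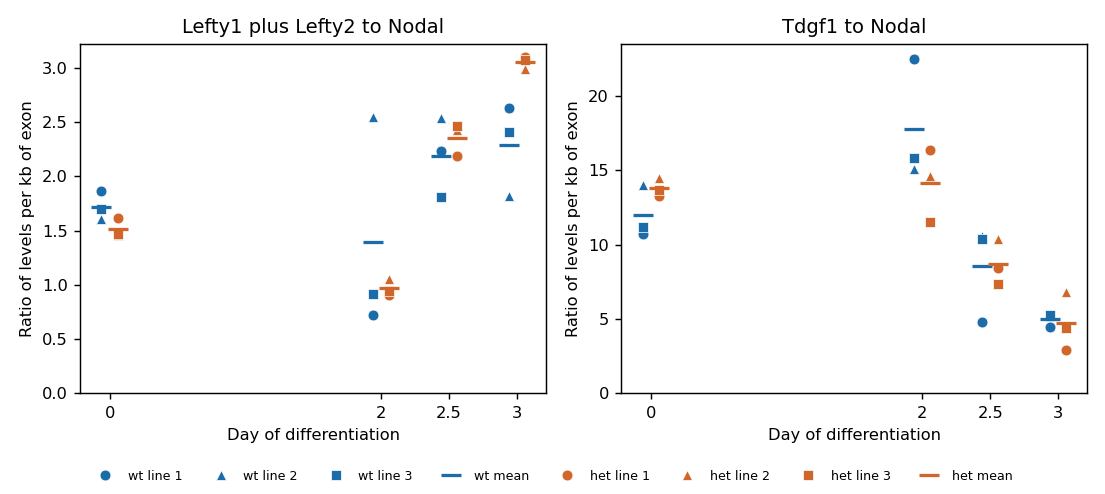
Ratios of levels per kilobase of exon are plotted against the day for each library (shape gives the line) and each group mean (bar), wt in blue and het in orange. The left panel shows that Lefty1 plus Lefty2 relative to Nodal is near 3 in all het libraries at day 3 and below that in wt, and the right panel shows Tdgf1 relative to Nodal at its highest mean at day 2 and at its lowest, 4.96 in wt and 4.70 in het, at day 3.

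Lines varied around their group means in a way that the members shared in part. Over the 24 libraries, the deviations of log2 CPM from the group mean had a Pearson r of 0.85 between Lefty1 and Lefty2, 0.79 between Nodal and Lefty1, 0.73 between Nodal and Lefty2 and 0.70 between Nodal and Foxh1. For Tdgf1 the r was 0.70 with Gdf3 but 0.29 with Nodal, 0.23 with Lefty1 and 0.05 with Lefty2. These values are descriptions, since the points share lines, depth and scaling factors, and the Lefty genes share reads. In wt at day 2.5, line 1 was highest and line 3 lowest in Lefty1, with deviations of 0.83 and -0.75 on the log2 scale. The endoderm marker sum had deviations of -0.71 and 0.69 in the same libraries. In wt at day 2 the order was another, with Lefty1 at -1.18, 1.39 and -0.21 in lines 1, 2 and 3 and the endoderm sum at -0.52, 0.00 and 0.52. At day 3 Lefty1 was at 0.58, -0.97 and 0.39 and the endoderm sum at -0.65, 0.31 and 0.34 in the wt lines, opposite in sign in lines 1 and 2 and alike in line 3. The part of the endoderm signal in the spread was not tested.

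Across the 8 group means of log2 CPM, the genes whose course was most like that of each member were found among 15907 other genes with at least 1 CPM in a group. For Nodal they were Castor1 (Pearson r 0.997) and Bvht (0.990), for Tdgf1 Gm21411 (0.996) and Map7d3 (0.995), and for Gdf3 Tex19.2 (0.996) and Dppa2 (0.995). For Foxh1 they were Foxi3 (0.986) and Pald1 (0.985), for Lefty1 Dio3 (0.986) and Usp17lc (0.980), and for Lefty2 Zscan18 (0.981) and Mmachc (0.970). Over the 24 single libraries r stayed at 0.966 for Castor1 and 0.974 for Dppa2, but it was 0.577 for Dio3 and 0.653 for Usp17lc, both of which are at or under 2.31 CPM in every group mean. Among the members themselves the highest r over the group means was 0.98, between Tdgf1 and Gdf3, followed by 0.96 between Lefty1 and Lefty2 and 0.93 between Nodal and Gdf3, and the lowest was 0.17, between Lefty1 and Foxh1.

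A list of 38 other genes of the Nodal and activin pathway was examined by role, chosen with results of these data known. Between day 0 and day 2, 12 of 30 tested genes rose and 5 fell in wt, and 15 of 31 rose and 5 fell in het, beside 22.4% higher and 21.9% lower in wt and 28.0% and 28.1% in het over all genes. Among the receptor genes, 3 of 5 tested rose in wt and 4 of 5 in het, and 0 fell. Of the 4 transducers Smad2, Smad3, Smad4 and Trim33, 3 rose in each genotype, with 0 falling in wt and 1 (Trim33) in het. Among the other ligand genes, Inhbb, which encodes a subunit of activin B, fell (log2 fold change -2.18 in wt and -2.42 in het), and Inhba, for activin A, was at a mean of 0 to 0.0963 CPM over the groups. Also lower in both genotypes were Smad7, an inhibitor of the receptors that is induced by the pathway (-2.0 and -2.41), and Pcsk6, a convertase that cuts the Nodal precursor (-1.41 and -0.98). Higher in both were Cyp26a1, which breaks down retinoic acid (2.68 and 2.18), and Fstl3, an activin antagonist (1.73 and 1.20). Fstl3 shares most of its sequence stretches with Prss57, and only 42.4% of them are its own. In the same list the share is lower still for Tgif2 (17.4%) and for Gdf1 (0%, shared with Cers1).

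After Wnt activation the pathway genes moved in both directions. Between day 2 and day 2.5, 6 of 33 tested pathway genes rose and 7 fell in wt, and 11 rose and 10 fell in het. Over all genes 14.6% rose and 14.5% fell in wt and 21.8% and 22.9% in het, so that the wt counts were near the background. The primitive streak gene Mixl1 rose most (log2 fold change 7.37 in wt and 6.33 in het), from a mean of 0.123 CPM to 20.6 CPM in wt and from 0.351 to 28.9 CPM in het. Fgf8, which encodes a growth factor of the streak, rose as well (4.03 and 4.42). Fst, which encodes the activin antagonist follistatin, went from 34.5 to 298 CPM in wt and from 13.1 to 320.1 CPM in het (log2 fold change 3.13 and 4.61). Lower in both genotypes in the same step were Otx2, a gene of the anterior epiblast (log2 fold change -3.43 in wt and -3.56 in het), the SMAD gene Smad3 (-1.07 and -1.21) and the corepressor gene Tgif1 (-0.89 and -0.99). Of the 10 genes known to respond to Nodal or activin, 3 of 8 tested rose in wt and 7 of 8 in het, and Otx2 fell in both. The interaction with genotype passed for 0 of 8 tested genes of this list. In the same step 0 of 16 tested endoderm markers rose in wt and 9 of 16 in het, and their part in these counts was not tested. Sox17 and Foxa2 in this list are also endoderm markers.

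Between day 2.5 and day 3, 6 of 33 tested pathway genes rose and 3 fell in wt, and 10 of 34 rose and 5 fell in het, beside 8.99% higher and 10.1% lower in wt and 13.8% and 16.0% in het over all genes. Fgf8 rose further (1.93 in wt and 1.91 in het). Smad3 (0.69 and 0.96), which had fallen in the step before, and the receptor gene Acvr2a (0.65 and 0.50) rose in this one. Eomes, a T-box gene of the streak (-1.71 and -1.78), Mixl1 (-1.38 and -1.82) and Fst (-1.06 and -0.92) were lower in both. Between genotypes, 0 of the tested pathway genes differed at day 0, day 2.5 and day 3. At day 0 and day 2.5 the deleted gene Smchd1 did not pass either. At day 2 there were 2 lower in het, Cyp26a1 (log2 fold change -1.51) and Sox17 (-1.28). Sox17 is an endoderm gene, and 11 of 16 tested endoderm markers were lower in het on that day. Its part in these calls was not tested.

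**Figure D5:**
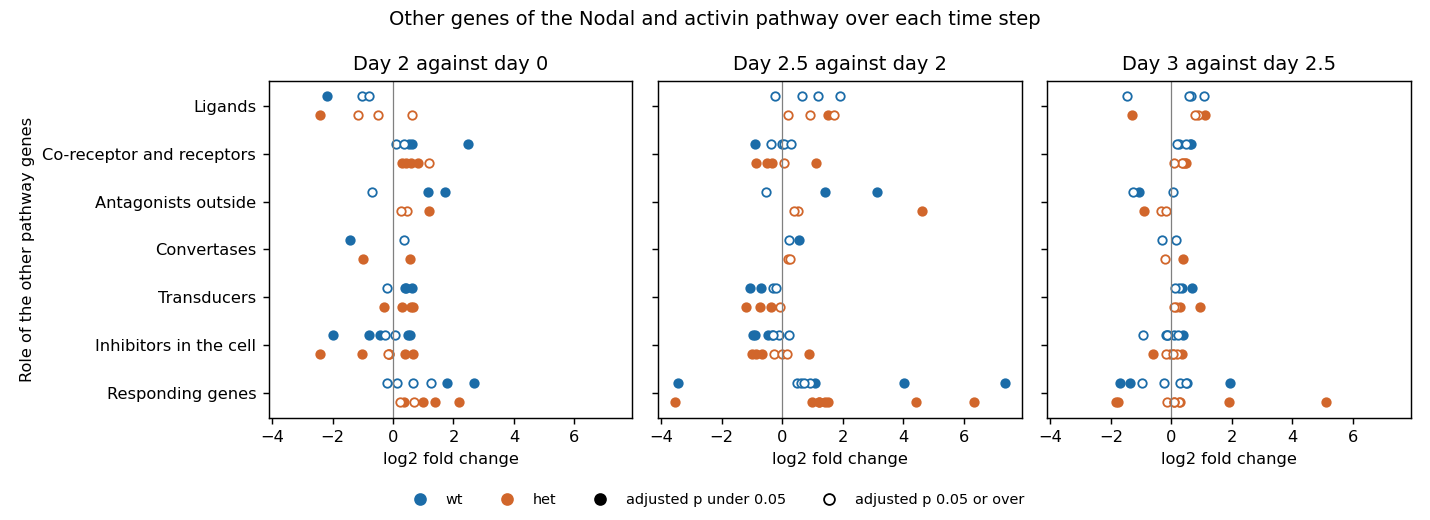
The log2 fold change of each tested gene of the 38 is plotted by role for each time step, wt in blue and het in orange, with filled points for an adjusted p under 0.05. The widest spread is that of the responding genes in the middle panel, from -3.56 for Otx2 in het to 7.37 for Mixl1 in wt, while the transducers stay between -1.21 and 0.96 in all steps.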

How the data were processed

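Poly(A) RNA was sequenced as single-end reads, and per the labels these were trimmed with Trim Galore 0.4.4 and aligned with HISAT2 2.0.5 to GRCm38.p6. The deposited table used here holds raw counts of reads per gene, which the authors made in SeqMonk with no normalization. A further deposited table of log2 values, which are reads scaled by length and library total for 34 factors, was used only to check the exon lengths taken from GENCODE vM21. The ratio of exon length to the length implied there was within 1% of its median for 33 of 33 factors that could be matched. A table of Hox genes was not used, nor were the 8 columns of group means. Whether the kit was stranded is not given for each library.

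The members and the lists of pathway genes and markers were chosen with earlier results of these data known. The analysis used edgeR 4.0.16 (R 4.3.3) with TMM factors, filterByExpr by group, and the quasi-likelihood test, fitted over all genes for each pair of groups, with Benjamini-Hochberg adjustment over all genes tested and a threshold of 0.05. A gene is said to rise, fall or differ only past that threshold. An SE is that of the log2 fold change, taken from its F statistic. Interactions were fitted on 12 libraries. Log2 CPM used a prior count of 0.5. P-values measure the spread between the libraries of a group, each from another line. The main fits of the time steps and interactions treat the libraries of a line on different days as independent. For wt against het, single genes were also given a two-sided exact permutation p over the 3 and 3 lines. Other settings tried were the size factors and the Wald test of DESeq2 1.42.0, scaling by totals alone, a filter of 1 count only, the 24 libraries in a joint fit, a replicate block for the line number, and leaving out each library (for the interaction, each line) in turn. Libraries of the same line on different days are paired by the labels. The correlation of their deviations from the group means across 15913 genes was -0.05 to 0.22 over the steps. Genes were named by rule: all members, in each step up to 3 higher and 3 lower pathway genes with the largest mean log2 fold change among those called in both genotypes, and the 2 genes most like each member. A gene that this rule names in the first step is not reported here. Trim33, Inhba, Sox17, Foxa2, Hhex, Dkk1, Lhx1, Otx2 at days 0, 2 and 3, and Cyp26a1 at day 2, were named after their values were seen. So were Dnmt3b, Fgf5, Pou3f1, Gdf1 and Tgif2. Figures were made in matplotlib 3.10.9 (Python 3.11.15).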

Additional observations from a re-analysis of the deposited data

How the results depend on the processing

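The fall of 5 members from day 0 to day 2 kept its count in both genotypes under every alternative run, and the 4 calls of het day 2.5 against day 2 became 4 to 5 when single libraries were left out. With no filter beyond 1 count, wt day 2.5 against day 2 gave 4 members in place of 2, wt day 3 against day 2.5 gave 5 in place of 3, het day 3 against day 2.5 gave 4 in place of 2, the genotype comparisons over the 4 days gave 5 in place of 0 and the interactions 1 in place of 0 (Lefty1 from day 2.5 to day 3). Over all genes the calls also rose with this setting, to 5015 from 4519, 3505 from 2923 and 5146 from 4710 in these 3 steps, to 369, 384, 87 and 274 between genotypes from the first day to the last, from 0, 85, 0 and 1, and to 58, 33 and 23 for the interactions from 0 in each. Het day 3 against day 2.5 also gave 4 with library totals alone and with the DESeq2 Wald test, and the genotype comparisons gave 3 with that test. Leaving out single libraries gave 1 to 4 members for wt day 2.5 against day 2, 1 to 4 for wt day 3 against day 2.5, 2 to 4 for het day 3 against day 2.5 and 0 to 1 for the genotype comparisons. Among the libraries named, wt day 2 line 2 gave the count of 4 in the first of these, het day 2.5 line 3 that of 4 in the third, wt day 3 line 3 that of 1 in the second, and wt day 3 line 1 that of 1 in the last. The causes of these shifts were not tested. With the line number as a replicate block, the genotype comparisons gave 1 member in place of 0, wt day 3 against day 2.5 gave 4 in place of 3, and no other call of a member changed. Of 936 alternative values of single members, 881 kept their direction and call or moved by less than their SE, 10 lost the call, 31 gained it, 0 called values turned, and 14 uncalled values changed sign by more than the SE. Of 280 alternative levels, 278 moved by less than the SD over lines. Limits are the 3 lines a group, the 7.10 M counts of wt day 2.5 line 2, and reads shared by Lefty1 and Lefty2.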
